A study of Mus musculus with 2 samples.

Results

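The genes described are 10 that license replication origins in mouse: the helicase subunits Mcm2, Mcm3, Mcm4, Mcm5, Mcm6 and Mcm7, the helicase cofactor Mcm10, the loading factors Cdt1 and Cdc6, and Gmnn, the gene of the inhibitor geminin. They were taken by symbol from the 53832 genes of the count table, and each symbol stood on 1 row. Their RNA was measured in small oocytes of 1 group with 2 libraries, replicates 1 and 2. The oocytes came from ovaries of female embryos that had been cultured under 33.3 kPa of external pressure, and had been sorted on the reporter Stella-CFP. Nothing in the labels gives a strain, an age or a meiotic stage, or says whether the libraries came from separate cultures. The spread between them may therefore be technical. With no untreated library, the values give levels under pressure and cannot show what pressure changed.

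A replication origin is licensed when the origin recognition complex, CDC6 and CDT1 load the MCM2-7 helicase onto DNA as an inactive ring. CDC7-DBF4 and cyclin-dependent kinases then turn the ring into an active helicase with CDC45 and the GINS complex, and geminin binds CDT1 so that no origin is licensed again in the same cycle. Oocytes pass through their last S phase before meiosis and do not replicate DNA again until after fertilization, when stored maternal products serve the embryo. In Xenopus, oocytes lack CDC6 protein until meiotic maturation, and the egg's ability to replicate appears with it.

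The cells carried oocyte transcripts and few of other cells. Levels are given as TPM, the expected count per kilobase of merged exons rescaled to a sum of 1000000 in each library. A gene was called expressed at a TPM of 1 or more in each library. All 12 oocyte markers were expressed, with a median TPM of 945. The libraries held 5019462 and 5274338 expected counts. The 38 markers of granulosa cells, stroma, endothelium and blood together held 46.8 and 40.4 CPM (counts scaled to a library total of 1000000). Of the 38, 7 were expressed: Nr0b1 and Nr5a2 (granulosa), Mfap4, Col1a1 and Dcn (stroma), Pecam1 (endothelium) and Hbb-bs (blood). The highest was Mfap4 at a TPM of 9.31 ± 0.460, near the lowest licensing gene, Cdc6, at 9.59. Another 12 were at 0 in both libraries, among them the granulosa receptor gene Fshr. The 10 licensing genes held 999.9 and 949 CPM. The part that such cells play in the levels below was not tested. Of 8 markers of mitotic germ cells and meiotic entry, 3 were expressed: Pou5f1, which oocytes also express, at a TPM of 259 ± 40.3 (SD, n = 2), Prdm1 at 11.8 ± 0.102 and Tfap2c at 2.23 ± 0.922. Of the other 5, Nanos3 and Nanog had 0 counts in both libraries, Stra8, which starts meiosis, had 1 and 0, Rec8 had 3 and 4, and Dmrt1 had 2 and 4. RNA levels do not show whether the cells were arrested.

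All 10 licensing genes were expressed. Of 21722 protein-coding genes 53.5% were expressed, and 25.7% of all genes. Each licensing gene also reached a TPM of 5 in both libraries. Their median TPM was 57.5 in replicate 1 and 57.0 in replicate 2, against 2.51 and 2.57 over all protein-coding genes. Together they held 0.09999% and 0.0949% of the counts. Per length, the inhibitor gene Gmnn was the highest and the loading factor gene Cdc6 the lowest. Without length scaling Gmnn, at a mean of 79.7 CPM, ranked 5 of the 10, Mcm6 was the highest at 193 CPM and Cdc6 stayed the lowest at 17.1. The plot of levels by library shows each gene's values.

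**Figure D1:**
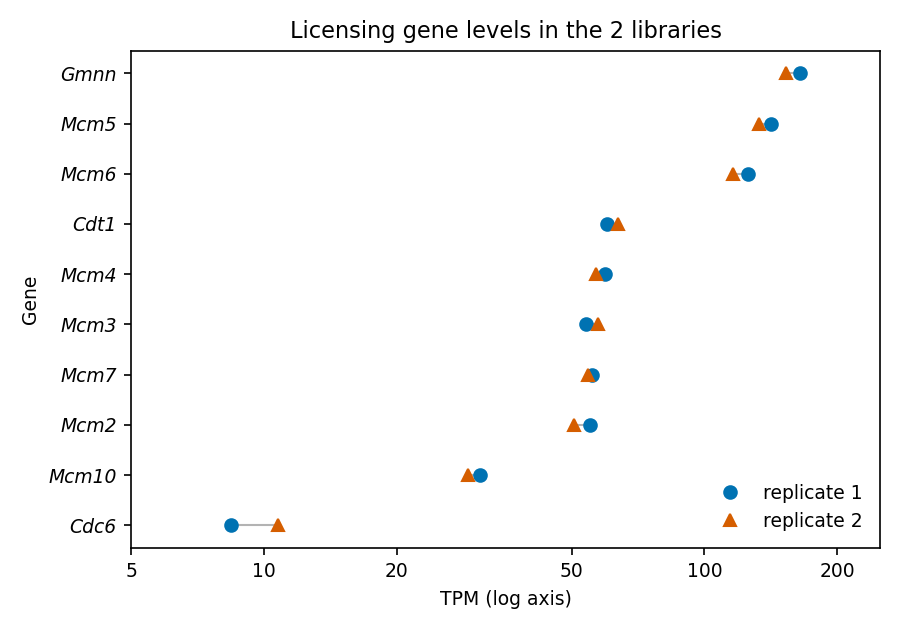
Levels of the 10 licensing genes as TPM on a log axis, with a circle for replicate 1 and a triangle for replicate 2. Gmnn, Mcm5 and Mcm6 lie above 100 in both libraries, 5 genes lie between 50 and 64, Mcm10 lies near 30 and Cdc6 near 10.

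The MCM2-7 subunits form a ring with 1 copy of each protein, and by merged exon length their RNA fell into an upper pair and a lower group of 4. Mcm5 (ENSMUSG00000005410, chromosome 8, 75109569 to 75128439 on GRCm38, plus strand) had 977 and 955 counts and a TPM of 142 and 133. Mcm6 (ENSMUSG00000026355, chromosome 1, 128331590 to 128359664, minus strand) had 1010.98 and 972 counts and a TPM of 125 and 116. MCM5 and MCM6 are not neighbours in the ring: MCM5 stands beside MCM2 at the gate through which DNA enters, and MCM6 beside MCM2 and MCM4. The ranges of Mcm5 and Mcm6 did not overlap. Their 95% counting intervals overlapped in replicate 1, at 133 to 151 and 118 to 133. In replicate 2 these intervals lay apart, at 125 to 142 and 109 to 124.

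The other subunits lay close together. Mcm4 (ENSMUSG00000022673, chromosome 16, 15623897 to 15637400, minus strand) had a TPM of 59.4 and 56.7. Mcm3 (ENSMUSG00000041859, chromosome 1, 20802968 to 20820312, minus strand) had a TPM of 53.9 and 57.3. MCM4, MCM6 and MCM7 can form a smaller complex with helicase activity, and MCM2, MCM3 and MCM5 regulate it. Mcm7 (ENSMUSG00000029730, chromosome 5, 138164583 to 138172422, minus strand) had a TPM of 55.6 and 54.5, and Mcm2 (ENSMUSG00000002870, chromosome 6, 88883474 to 88898780, minus strand) had 54.8 and 50.6. The ranges of Mcm4 and Mcm3, of Mcm3 and Mcm7 and of Mcm7 and Mcm2 overlapped. The range of Mcm4 lay above those of Mcm7 and Mcm2, though the counting intervals overlapped. The order changed with the gene length used, so none is read among these 4. The highest subunit stood 2.63-fold above the lowest in each library, with a mean of 2.63 ± 0.00202 (SD, n = 2). So small an SD of 2 values does not measure the error of the ratio. In replicate 1 the 95% counting intervals were 133 to 151 TPM for Mcm5 and 50.7 to 59.2 for Mcm2.

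Which subunit was lowest depended on the gene length used. Merged exons count every annotated isoform, including transcripts with retained introns, and Mcm2 has 7 annotated transcripts of which 1 is protein-coding. Its merged exons span 6956 bases, and its protein-coding transcript 3371. With the length of the longest protein-coding transcript, the TPM of Mcm2 was 77.7, that of Mcm7 58.7, that of Mcm3 49.1 and that of Mcm4, then the lowest, 41.4. Mcm5 at 116 and Mcm6 at 92.4 stayed the highest of the 6 under that length and under that of the longest transcript, and the ratio of highest to lowest was 2.80 and 2.81. The plot of levels under 3 lengths shows these shifts.

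**Figure D2:**
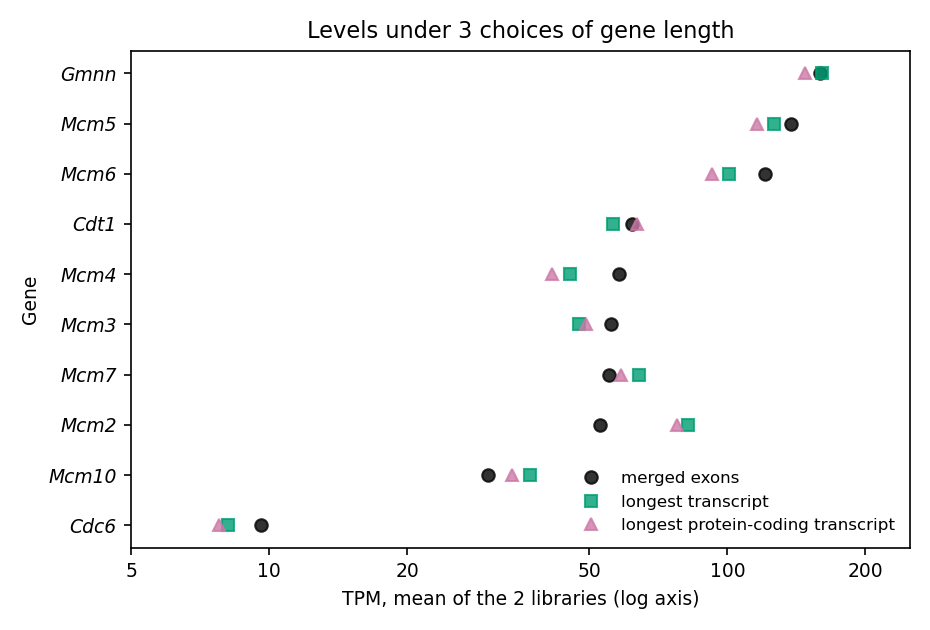
Mean TPM of the 2 libraries on a log axis for each licensing gene, with length taken from merged exons (circles), the longest transcript (squares) or the longest protein-coding transcript (triangles). Mcm2 moves from 52.7 to 81.9 and 77.7, while Gmnn, Mcm5 and Mcm6 stay the 3 highest and Mcm10 and Cdc6 the 2 lowest under all 3.

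Mcm10 (ENSMUSG00000026669, chromosome 2, 4989714 to 5012791, minus strand) is related to the ring subunits in name only: its protein binds the assembled helicase and helps to start it. It had 411 and 402 counts and a TPM of 30.9 and 29.1. By merged exon length, the mean of the 6 ring subunits was 2.64-fold higher than Mcm10 in replicate 1 and 2.68-fold higher in replicate 2. By that length the ranges and counting intervals of Mcm10 lay apart from those of every other licensing gene in both libraries. With the length of the longest protein-coding transcript its TPM was 33.9, against 41.4 for Mcm4, the next above. Without length scaling Mcm10, at a mean of 79.0 CPM, ranked 6 of the 10, above Mcm3, Mcm4 and Cdt1.

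The loading factors stood far apart. Cdt1 (ENSMUSG00000006585, chromosome 8, 122568015 to 122573554, plus strand), which brings the MCM2-7 ring to the origin, had 326 and 359 counts and a TPM of 60.1 and 63.7. Cdc6 (ENSMUSG00000017499, chromosome 11, 98907801 to 98923940, plus strand), an ATPase that recruits CDT1 to the origin recognition complex, had 76 and 101 counts and a TPM of 8.41 and 10.8. Cdc6 lay above 60.7% of protein-coding genes, while the other licensing genes lay above 76.9 to 95.8% of them. By merged exon length, Cdt1 stood 7.14-fold above Cdc6 in replicate 1 and 5.92-fold above it in replicate 2. The mean of the 6 ring subunits stood 9.72-fold and 7.25-fold above Cdc6. Without length scaling the means of Cdt1 and Cdc6 were 66.5 and 17.1 CPM. With the length of the longest protein-coding transcript their TPM was 63.4 and 7.76, so the size of the gap depends on length. The counts of Cdc6 give it the widest errors relative to its level. Its 95% counting interval was 6.63 to 10.5 TPM in replicate 1 and 8.77 to 13.1 in replicate 2.

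Gmnn (ENSMUSG00000006715, chromosome 13, 24751845 to 24761923, minus strand) had 417 and 403 counts and a TPM of 165 and 153. It was above Cdt1 in both libraries, by 2.74-fold in replicate 1 and 2.41-fold in replicate 2, a mean of 2.57 ± 0.237 (SD, n = 2). The excess rests on length, since the merged exons of Gmnn span 1465 bases and those of Cdt1 3140. Without length scaling the ratio was 1.20. In human cells geminin also protects CDT1 from degradation, and a ratio of RNA levels does not give free CDT1 protein. The ranges of Gmnn and Mcm5, the next in order, lay apart, while their counting intervals overlapped in both libraries.

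Several licensing genes have neighbours or copies that could share reads. Mcm7 overlaps 321 exon bases of Ap4m1, with 91 and 101 counts, and 64 of Cops6, with 1170 and 1150 counts, both on the opposite strand. The libraries keep the strand, but no source used here gives the strand setting of the counting. The span of Cdt1 overlaps that of Galnt2l on the same strand, with 0 shared exon bases. Galnt2l had 158.15 and 297.71 counts, and its part in the counts of Cdt1 was not tested. The processed pseudogene Gm5487 matches Mcm7 at 97.7% identity over 2157 bases and had 0 and 1.38 counts. Pseudogenes of Cdc6 (Gm9430, 95.2% over 1528 bases), Gmnn (Gm6510, 93.5% over 491) and Mcm4 (Gm9577, 91.1% over 1861) had 0 counts. Of the 10 licensing genes, 7 had whole counts in both libraries, and Mcm2, Mcm6 and Mcm7 had a fraction in 1 library, which marks reads that RSEM divided between genes. Mir25 and Mir93, miRNA genes inside Mcm7, had 0 counts, which says nothing of mature miRNAs in libraries made from polyadenylated RNA.

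E2F factors are the textbook regulators of licensing genes, and promoter sequences are shown as background. All 10 genes passed the expression threshold, as 53.5% of protein-coding genes did. Whether they share a regulator in these cells was not tested. RefSeq promoter windows on GRCm38.p6, from 250 bases before to 50 after the start site, were matched for 8 of the 10 genes; Gmnn and Mcm4 had none in the table used. The E2F site was searched as TTTCCCGC, TTTCGCGC, TTTGCCGC and TTTGGCGC on both strands. It was found in 6 of the 8 genes (Mcm3, Mcm5, Mcm6, Mcm7, Cdt1 and Cdc6). By window it was in 6 of their 9, while 2.85% of 21262 windows of protein-coding genes and 2.26% of all 32851 windows held it. The words can overlap each other on opposite strands. The first lines give the stretch around the matches, with the matched bases in capitals.
Mcm6, chr1:128359729-128359831, minus strand: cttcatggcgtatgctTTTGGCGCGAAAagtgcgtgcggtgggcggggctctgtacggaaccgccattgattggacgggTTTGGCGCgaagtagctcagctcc
Mcm3, chr1:20820263-20820309, minus strand: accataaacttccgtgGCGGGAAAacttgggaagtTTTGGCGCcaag
Cdt1, chr8:122568031-122568064, plus strand: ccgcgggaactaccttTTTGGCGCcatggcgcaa
Mcm7, chr5:138171844-138172064, minus strand: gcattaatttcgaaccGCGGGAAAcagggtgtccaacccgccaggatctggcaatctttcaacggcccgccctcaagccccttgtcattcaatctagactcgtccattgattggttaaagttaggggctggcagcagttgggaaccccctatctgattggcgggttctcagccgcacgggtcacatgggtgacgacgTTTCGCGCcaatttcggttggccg

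Mcm6 held 3 matches, of which the first 2 overlap on opposite strands at positions -110 to -99 from the start site, and the third lies at -47 to -40. Mcm3 held matches at 20 to 27 and 39 to 46 after the start, Cdt1 held 1 at 33 to 40, and Mcm7 held matches at -165 to -158 and 17 to 24. A further Mcm7 window, with a start site farther into the gene, held none. Whole windows are shown for Mcm5, the highest gene with a window, for Cdc6, the lowest, and for Mcm2, the ring subunit with no match.
Mcm5, chr8:75109259-75109558, plus strand: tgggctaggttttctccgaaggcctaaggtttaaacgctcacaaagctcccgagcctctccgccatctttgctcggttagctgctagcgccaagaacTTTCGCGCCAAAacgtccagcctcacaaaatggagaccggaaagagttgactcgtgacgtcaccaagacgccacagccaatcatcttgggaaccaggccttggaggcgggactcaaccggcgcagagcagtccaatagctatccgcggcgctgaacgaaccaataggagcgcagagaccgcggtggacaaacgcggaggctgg
Cdc6, chr11:98907901-98908200, plus strand: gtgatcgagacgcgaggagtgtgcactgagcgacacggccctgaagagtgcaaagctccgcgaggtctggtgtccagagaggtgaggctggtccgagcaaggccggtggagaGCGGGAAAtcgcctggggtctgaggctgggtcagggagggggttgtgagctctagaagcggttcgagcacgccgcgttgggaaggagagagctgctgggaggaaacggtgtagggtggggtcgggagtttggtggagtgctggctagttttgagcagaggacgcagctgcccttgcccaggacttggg
Mcm2, chr6:88898731-88899030, minus strand: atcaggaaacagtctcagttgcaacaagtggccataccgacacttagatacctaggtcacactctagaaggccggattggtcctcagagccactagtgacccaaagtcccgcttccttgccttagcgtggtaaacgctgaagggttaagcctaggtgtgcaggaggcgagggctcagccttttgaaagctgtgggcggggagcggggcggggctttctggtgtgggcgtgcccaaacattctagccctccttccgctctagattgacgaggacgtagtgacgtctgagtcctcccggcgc

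In Mcm5 the 2 matches overlap at positions -153 to -142, and in Cdc6 the match lies at -138 to -131. The RefSeq start of Cdc6 lies 350 bases inside the GENCODE gene, and that of the Mcm7 window with matches 539 bases inside, so neither window is upstream of the whole annotated gene. The window of Mcm10 held no match either, but its last bases are TTTGGCGC short of the final C. A match across the edge of that window was not looked for. The 2 genes without a match in their windows had a mean TPM of 52.7 (Mcm2) and 30.0 (Mcm10). Of the 6 genes with a match, Mcm5, Mcm6 and Cdt1 had a higher mean TPM than both. Mcm3 and Mcm7 lay above Mcm10, but no order is read between them and Mcm2. Cdc6 had a lower mean TPM than both, at 9.59. With the length of the longest protein-coding transcript, Mcm2 lay above Cdt1, Mcm7 and Mcm3 as well. No test of levels against matches was made. The CCAAT box, CCAAT on either strand, was in 7 of the 9 windows (6 of the 8 genes), against 38.2% of windows of protein-coding genes. TTTGAA, the CHR element of cell cycle genes, was in 1 of the 9 windows, against 16% of windows of protein-coding genes. The match in Mcm7 at 17 to 24 shares 1 base with a CCAAT box. These matches describe letters in the windows and do not show that a factor was bound.

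The other genes of replication were nearly all present. Of 99 genes in 8 lists, 96 were expressed. The origin recognition complex, with its partner Lrwd1, had 7 of 7 genes expressed at a median TPM of 66.3, from Orc5 at 85.9 ± 2.19 to Orc4 at 18.6 ± 0.825 (SD, n = 2). The ratio of the highest to the lowest of Orc1 to Orc6 was 4.62 ± 0.0874, and 7.39 ± 0.140 with the length of the longest protein-coding transcript. These proteins also form a complex, and their spread was wider than that of the MCM2-7 genes under each of the 3 lengths.

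Of 8 other MCM-domain, MCM-binding and geminin-family genes, 5 were expressed. Mcm8, a helicase of meiotic recombination and DNA repair, was the highest with a TPM of 93.3 ± 5.26. The relatives of geminin that drive multiciliated cells were near the floor. Mcidas had no count in either library, so that a level of up to 0.598 CPM in replicate 1 and 0.569 CPM in replicate 2 cannot be told from 0, and Gmnc had 0 and 1 counts. Mcmdc2, an MCM-domain protein of meiotic recombination, had 1 and 3 counts. Within the geminin family, Gmnn was thus the only gene at a TPM of 1 or more among the 3 measured.

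Origin kinases and their cyclins had 6 of 6 genes expressed at a median TPM of 35.5, from Ccna2 at 53.2 ± 2.22 to Ccne2 at 12.1 ± 1.17. The partners that complete the helicase and fire origins had 14 of 14 expressed at a median of 33.4. Gins4 stood at 266 ± 18.1 and Mtbp, a partner of the firing factor treslin, at 4.88 ± 1.01. The 4 GINS subunits differed by 25.3-fold in replicate 1 and 20.6-fold in replicate 2 between highest and lowest. That ratio was 23.5 and 19.1 with the length of the longest protein-coding transcript, against 2.82 and 2.78 for the MCM2-7 genes.

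DNA polymerases, the clamp and its loader, and RPA had 23 of 23 genes expressed at a median TPM of 76.7, from the clamp loader subunit Rfc4 at 232 ± 23.3 to Pole2 at 10.7 ± 2.97. Nucleotide supply had 9 of 9 expressed at a median of 26.3. Dctpp1, a pyrophosphatase that breaks down dCTP and its modified forms, stood at 673 ± 0.230 and the thymidine kinase gene Tk1 at 9.20 ± 1.83. The plot of gene lists sets these levels side by side.

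**Figure D3:**
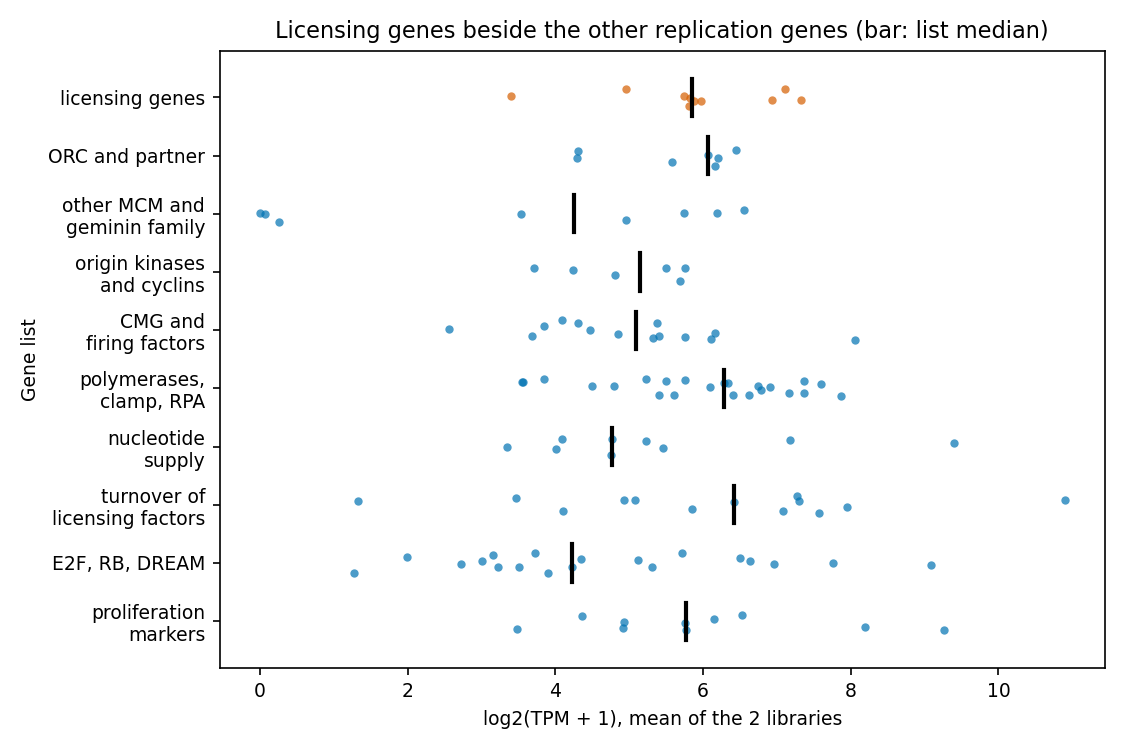
Each point is 1 gene at its log2(TPM + 1), from the mean TPM of the 2 libraries, and each bar is the median of the list. The licensing genes (top) have a median TPM of 56.8, between the E2F, RB and DREAM list at 17.6 and the turnover list at 84.3.

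The list of ubiquitin ligase subunits and other factors that act on CDT1, CDC6 or geminin, which also holds the deubiquitinase gene Usp37 and the ligase inhibitor gene Fbxo5, had 13 of 13 genes expressed at a median TPM of 84.3. Skp1a, a core subunit of SCF ubiquitin ligases, stood at 1902 ± 69.4. Skp2, the SCF subunit that recognizes CDT1, stood at 1.52 ± 0.245 with 23 and 19 counts. The E2F, RB and DREAM list had 19 of 19 expressed at a median of 17.6, from E2f5 at 541 ± 14.7 to the repressor E2f7 at 1.42 ± 0.261. The 10 proliferation markers, several of which meiotic cells also use, were all expressed at a median of 53.3. No test was made between lists.

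No licensing gene was called different between the libraries. Counts were set against effective library sizes in a two-sided exact binomial test over 12182 genes, which compares these libraries and not conditions. None of the 10 passed an adjusted p of 0.05, which 7.84% of the tested genes did, with 4.25% higher and 3.59% lower in replicate 2. At an unadjusted p under 0.05 the count was also 0 of 10, against 20.7% of the tested genes. The negative binomial exact test of edgeR, at a preset coefficient of variation of 0.1, called 14 of the 12182 tested genes and 0 of the 10. With so few calls, 0 of 10 says little about these genes. With a minimum of 2-fold beside the adjusted p the count was 0 of 10, and 0.673% of the tested genes passed. The log2 ratio of replicate 2 over replicate 1 was below 0 in 7 genes and above 0 in 3 (Cdc6, Mcm3 and Cdt1), with a median of -0.09, while 50% of all tested genes were above 0. A gene that missed the threshold is not shown to be equal in both. Of the 12 oocyte markers, 6 passed the adjusted p of 0.05 of the binomial test between the same libraries. Of these, 5 were higher in replicate 2, such as Zp2 at a log2 ratio of 0.49, and Dazl was lower at -0.17. None of the 6 passed the negative binomial test, which with 14 calls among 12182 genes says little about them. The part of the oocyte markers in the ratios of the licensing genes was not tested.

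Cdc6 had the largest log2 ratio, 0.34 (95% counting interval -0.10 to 0.79, counting SE 0.22, adjusted p = 0.417, exact binomial test). Mcm6 came nearest to the threshold, with a log2 ratio of -0.12 (-0.25 to 0.00, SE 0.06, adjusted p = 0.26, exact binomial test). The other 8 lay between -0.13 for Mcm2 and 0.08 for Mcm3. These intervals hold counting noise only. The spread over the tested genes was larger, with a biological coefficient of variation of 7.31% in edgeR. All 10 ratios lay within the middle 90% of the 7468 tested genes in their range of counts, -0.32 to 0.35, as the plot of ratios shows.

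**Figure D4:**
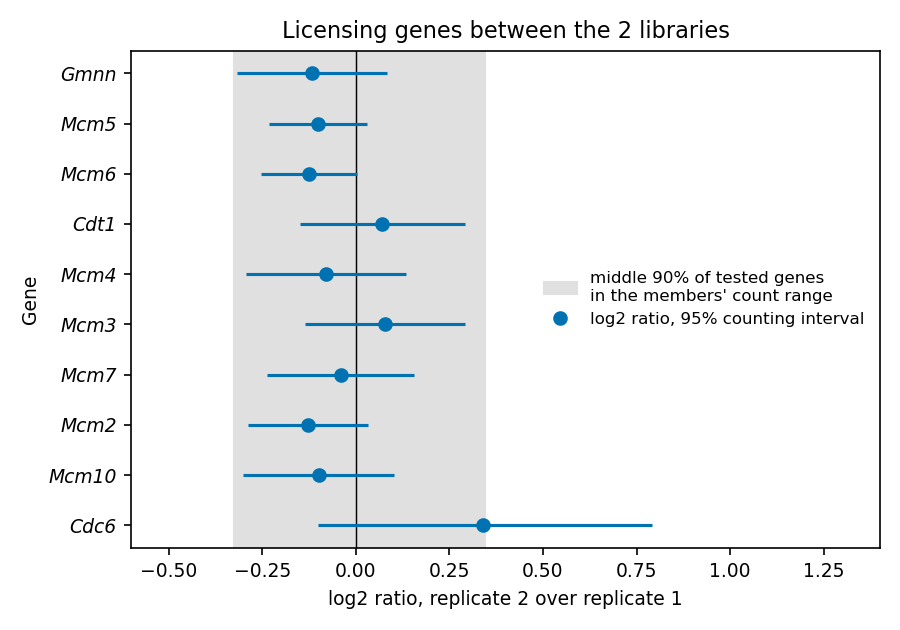
Points are log2 ratios of replicate 2 over replicate 1 for the licensing genes, lines are 95% counting intervals, and the grey band holds the middle 90% of 7468 tested genes with counts in the same range. All 10 points lie in the band, from -0.13 to 0.34, and the interval of every gene includes 0.

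None of the 96 genes tested in the 8 other lists passed the adjusted p of 0.05 at 2-fold or more, against 0.673% of all tested genes. Without the fold minimum 4 passed, or 4.17%, against 7.84% of all tested genes. They were named after their values were seen: Orc1, the largest subunit of the origin recognition complex, had a log2 ratio of 0.29 (adjusted p = 0.0421, exact binomial test), while Rpa2, Rbx1 and Skp1a had log2 ratios of -0.28, -0.22 and -0.09. None of these 4 passed the negative binomial test, which called so few genes that this says little about them. The fractional counts of Skp1a and Rbx1 make their ratios uncertain. The median log2 ratio over the 96 was -0.02, with 41 above and 55 below 0.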

How the data were processed

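Gene-level values of 2 RNA-seq libraries were used. The authors deposited an expected count for each gene, with no scaling for depth or length. Per the submitters' processing notes, fastp 0.20.0, STAR 2.7.7a and RSEM were used with build GRCm38; the annotation release, the settings and the raw depth do not appear in the labels or headers. Per the labels' protocols, polyadenylated RNA was made into directional libraries with 12 cycles of PCR. The table's 21 columns with names of no sample here were left unused.

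Of 53832 gene IDs, 53579 matched GENCODE release M21, which gave merged exon lengths for TPM and the coordinates (1-based); the 253 others held 0.0127% and 0.0102% of the counts. The log scale was log2(TPM + 1). Between libraries, rounded counts of genes kept by filterByExpr were scaled by TMM (edgeR 4.0.16, R 4.3.3) and compared by an exact binomial test, two-sided and adjusted by Benjamini-Hochberg over all genes tested; log2 ratios used a prior count of 0.5. A quasi-likelihood fit has no residual degrees of freedom for 1 library against 1. The libraries differed by more than sampling noise, so they are not 1 library deposited under 2 names. Counting intervals are exact (Clopper-Pearson, 95%), the floor is 3 counts per library, and both cover counting error only, since PCR copies are not independent molecules. Copies were searched with blastn at 90% identity over 200 bases or more.

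The genes, lists and motifs were chosen with earlier results of these data known. Named genes are the 10 licensing genes, the highest and lowest of each list, those at 0 in both libraries, and those called at 2-fold or more; with 2 libraries of 1 group, no gene was named for a like pattern. Orc1, Rpa2, Rbx1, Mcmdc2, Gmnc, Usp37, Fbxo5 and the markers named in the text were added after their values were seen. Alternatives were CPM, other lengths, totals without mitochondrial genes, a pseudocount of 0.1, a TPM threshold of 5, DESeq2 (1.42.0) size factors, library totals, no filter, a negative binomial test with a preset coefficient of variation of 0.1, a 2-fold minimum, and leaving out either library. The length of the longest protein-coding transcript was added after the data had been seen.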

Additional observations from a re-analysis of the deposited data

How the results depend on the processing

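All 10 licensing genes stayed expressed, and none was called between libraries, under every alternative run for those counts. The median level of the licensing genes, 5.86 on the log2(TPM + 1) scale, was 6.33 as CPM, 5.93 with the longest transcript, 5.95 with the longest protein-coding transcript, 6.01 without mitochondrial genes in the totals and 5.84 with a pseudocount of 0.1; leaving out a library gave 5.86 to 5.87. The ratio of highest to lowest MCM2-7 gene, 2.63, was 2.78 as CPM, 2.81 and 2.80 with those lengths, and 2.63 with either library left out. The Gmnn to Cdt1 ratio, 2.57, was 1.20 as CPM, 2.87 and 2.33 with those lengths, and 2.41 to 2.74 with a library left out. Calls over all genes numbered 955, 82 with a 2-fold minimum and 14 with the negative binomial test at the preset coefficient of variation of 0.1, so the count rests on whether spread beyond counting noise is allowed for. DESeq2 size factors gave 968, library totals 964 and no filter 935. No paired analysis was possible because there is 1 group. With 76 and 101 counts, Cdc6 is the licensing gene whose level the depth limits most.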
